A study of Mus musculus with 4 samples.

Results

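Genes whose symbols consist of Gpr, a number and optional letters were examined in mouse Neuro-2A neuroblastoma cells after transfection with Zac1. They were taken by that symbol rule from the lines with a gene ID, which gave 39 of 12861 genes. Of these, 31 had a mean normalised tag count of at least 10 over the 4 libraries and were tested, and 8 were too low. Zac1, the product of the imprinted gene Plagl1, is a zinc-finger transcription factor, and the comparison asks which genes change when it is overexpressed.

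One group was transfected with the plasmid pRK5-Zac1 and the other with pRK5-CAT, which encodes bacterial chloramphenicol acetyltransferase and served as the negative control. Both groups were the same cell line, labelled neuroblastoma Neuro-2A of strain Swiss Albino, and RNA was taken 16 h after lipofection. Each group held 2 libraries from separate transfections, numbered 9 and 12 in the sample titles. RNA abundance was measured by digital gene expression (DGE), which sequences and counts a short tag beside a DpnII site of each polyadenylated transcript. The share of cells that took up a plasmid is not given in the labels, so each value is a mean over transfected and untransfected cells. More RNA per cell and more cells with the RNA cannot be told apart in such libraries.

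G protein-coupled receptors cross the membrane several times, sense a ligand or a mechanical cue outside the cell and activate a heterotrimeric G protein inside it. A Gpr symbol was given to receptors found by sequence, many of which are orphans without an agreed ligand. The symbol covers unlike proteins: adhesion receptors with long extracellular domains, rhodopsin-like receptors, class C receptors, and membrane proteins of the Golgi, the lysosome or the plasma membrane that are not thought to act as classical receptors. Several members carry other names today. Gpr56 is now Adgrg1, Gpr124 is Adgra2, Gpr125 is Adgra3, Gpr30 is the membrane estrogen receptor gene Gper1, and Gpr172b is the riboflavin transporter Slc52a2, by gene ID in RefSeq GRCm38.p6.

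The libraries held between 11578920 and 13840674 tags assigned to listed genes. Zac1 replicate 9 stood apart: the chi-square per degree of freedom of its gene counts was 39.1 against Zac1 replicate 12. Against CAT replicates 9 and 12 it was 33.1 and 39.9. For Zac1 replicate 12 against the same CAT libraries it was 13.3 and 12.8, while that between the CAT libraries was 13.6. By this measure Zac1 replicate 12 differed from the CAT libraries no more than these differed from each other. The normalised tag count of Plagl1 was 3397 and 1475 in the Zac1 libraries (replicate 9 first here and in all later pairs) and 0 and 0 in the CAT libraries. Plasmid and chromosomal transcripts of Plagl1 were not told apart. Of 17 markers of sympathetic and neuroblastoma cells 14 were measured, each with at least 43 tags in every library. None of the 14 passed the test.

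Of the 31 Gpr genes tested, 4 rose after Zac1 transfection and 0 fell. The 4 were the adhesion receptor genes Gpr56 and Gpr124, the proton-sensing receptor gene Gpr4 and the orphan receptor gene Gpr153. They make 12.9% of the tested Gpr genes, against 0.962% of all 11433 genes tested that rose and 0.0% that fell (limma on log2(normalised tag count + 1), Benjamini-Hochberg adjusted p under 0.05). Gpr4 reached the minimum mean for testing only through the Zac1 libraries. Its rise thus let it into this count and into later shares of the tested genes. The other 27 did not pass, and 20 of them had a log2 fold change within 0.5 of 0. The median log2 fold change of the tested Gpr genes was 0.02, against -0.01 for all genes tested. Each of the 4 lost its call when either Zac1 library was left out, which left 1 gene, Plagl1, past the threshold among all genes tested.

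**Figure D1:**
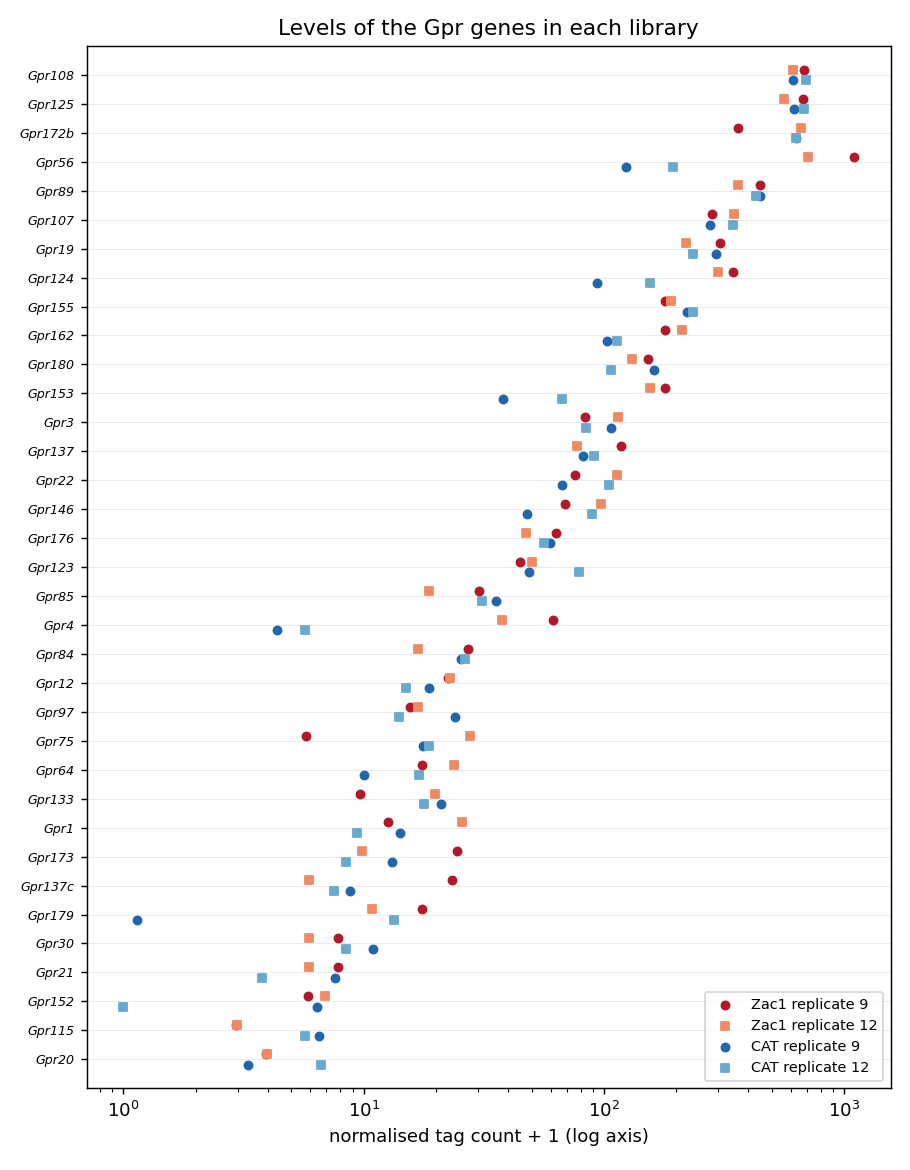
Normalised tag count plus 1 (log axis) of 35 Gpr genes, ordered by their mean over the 4 libraries, with red and orange symbols for the Zac1 libraries and dark and light blue for the CAT libraries (circles, replicate 9, and squares, replicate 12). Most genes have their 4 points close together. Gpr56, Gpr124, Gpr153 and Gpr4 have both Zac1 points to the right of both CAT points, as do Gpr162, Gpr12 and Gpr64, which did not pass.

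The levels of the Gpr genes covered a wide range, up to a mean normalised tag count of 648 for Gpr108. A tag is counted once per transcript copy, so tag counts carry no length term, but cut sites differ in how well they are recovered. A mean of at least 200 was reached by 9 genes, 11 lay between 50 and 200, 11 between 10 and 50, and 8 below 10. In the CAT libraries the leading genes were Gpr125, Gpr108 and Gpr172b, with means of 652 ± 44.4, 651 ± 54.6 and 627 ± 0.0798 (SD, n = 2), which differ by no more than their spread. In the Zac1 libraries Gpr56 came first, at 904 ± 276, followed by Gpr108 at 645 ± 51.5 and Gpr125 at 616 ± 81.6. Gpr56 ranked 8 of the 39 in the CAT libraries.

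Summed over the 39 genes, the normalised tag count was 5733 and 5340 in the Zac1 libraries and 4389 and 4761 in the CAT libraries. Gpr56 alone made 19.2% and 13.3% of that sum in the Zac1 libraries, against 2.81% and 4.06% in the CAT libraries. The genes that did not rise summed to 4051 and 4144 in the Zac1 libraries, and to 4133 and 4342 in the CAT libraries. These sums include the genes chosen by the test and are a description.

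Both Zac1 libraries lay above both CAT libraries for 7 of the 31 tested genes, or 22.6%, where 17.2% of all genes tested did so. The 7 were the 4 that rose, Gpr162, Gpr12 and Gpr64. Both Zac1 libraries lay below both CAT libraries for 3, or 9.68% of the tested Gpr genes, against 16.7% of all genes tested. Neither share was tested against its background. At an unadjusted p under 0.05, 5 Gpr genes were higher and 0 lower, 16.1% and 0.0% of those tested, against 5.23% and 0.962% of all genes.

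What the DGE assay reads of the 4 genes that rose is a tag that starts at the last DpnII site (GATC, in capitals) of the transcript. The 20 bases from that site are shown for the main GENCODE M21 transcripts of each gene, as the stretch expected behind the values below:
Gpr56: GATCcctgcaggtcgctcag
Gpr4: GATCctgctatcagggaggt
Gpr153: GATCagccaccacagaagag
Gpr124: GATCaagtgagaggacagag
None of these tags is the last tag of any other annotated gene in GENCODE M21 (1 gene each). Shorter annotated transcripts of Gpr56 and Gpr124 end in other tags, and which tags the authors assigned to a gene is not given in the sources used here.

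Of the adhesion receptor genes 9 were measured and 7 tested, of which 2 rose, where 0.962% of all genes tested did. Gpr56, which binds matrix ligands and is needed for the layering of the developing cortex, had a normalised tag count of 1099 and 709 in the Zac1 libraries and 123 and 193 in the CAT libraries. The groups were far apart, with the lower Zac1 library still above the higher CAT library, and Zac1 replicate 9 was the highest. The means were 904 ± 276 and 158 ± 49.5 (SD, n = 2 each), a 5.70-fold difference. Its log2 fold change was 2.51 ± 0.28 (SE; limma adjusted p = 0.000138), with a 95% interval of 1.92 to 3.09. Leaving out Zac1 replicate 9 gave 2.19 (adjusted p = 0.691), leaving out Zac1 replicate 12 gave 2.82 (0.127), and the gene passed in 12 of 14 alternatives, over which the adjusted p ranged from 7.58e-21 to 0.691.

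Gpr124, a co-receptor for Wnt7 ligands in brain vessel growth, had a normalised tag count of 344 and 297 in the Zac1 libraries and 92.4 and 155 in the CAT libraries. The groups did not overlap, and the Zac1 libraries were closer to each other than the CAT libraries were. Its means were 320 ± 33.4 and 124 ± 44.3 (SD, n = 2 each), and its log2 fold change was 1.41 ± 0.28 (SE; limma adjusted p = 0.0198). It rested on the CAT libraries kept: without CAT replicate 9 the log2 fold change was 1.04 and did not pass (adjusted p = 0.38, range over alternatives 1.15e-05 to 0.818). It also did not pass without a trend of the variance on abundance (adjusted p = 0.177) or after a correction of each library for transcript GC content (0.174, with a log2 fold change of 1.04). The transcripts of Gpr124 have a median GC content of 59.5% and those of Gpr56 56.4%, against a median of 51.2% over all genes tested, and what GC content contributes to either change was not tested beyond that correction.

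Gpr125, the closest relative of Gpr124 in the same subfamily, did not follow it. Its normalised tag count was 674 and 559 in the Zac1 libraries and 620 and 683 in the CAT libraries, and the groups overlapped. The log2 fold change was -0.09 ± 0.22 (SE), with a 95% interval of -0.56 to 0.39, which lies wholly below the interval of Gpr124, 0.81 to 2.00. The brain receptor gene Gpr123, the remaining member of that subfamily, was at 43.7 and 49.4 in the Zac1 libraries and 48.0 and 78.0 in the CAT libraries, with a log2 fold change of -0.39 ± 0.37 (SE). The difference in response between these paralogs was not itself tested.

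Gpr97, another adhesion receptor gene, lies next to Gpr56 on chromosome 8 in RefSeq GRCm38.p6. Gpr97, known from granulocytes, was low, at 14.6 and 15.8 in the Zac1 libraries and 23.1 and 13.0 in the CAT libraries, and did not pass (log2 fold change -0.19 ± 0.57 SE). Ccdc102a, a nearby gene on the same chromosome, was at 102 and 92.9 in the Zac1 libraries and 36.7 and 46.0 in the CAT libraries, with a log2 fold change of 1.22 ± 0.33 (SE; limma adjusted p = 0.114). Of these 3 genes, Gpr56 was the only one that passed. Brf2, whose gene body overlaps Gpr124 in the same annotation, was at 291 and 299 in the Zac1 libraries and 333 and 453 in the CAT libraries, so its tags did not move in the direction of Gpr124.

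The adhesion receptor gene Gpr64, known from the epididymis, was at 16.5 and 22.8 in the Zac1 libraries and 9.01 and 16.0 in the CAT libraries. Its groups barely separated, and the log2 fold change of 0.64 ± 0.59 (SE) did not pass. For Gpr133 the values were 8.69 and 18.8 in the Zac1 libraries, against 19.9 and 16.9 in the CAT libraries. Gpr115 was at the bottom of the range, with 4 tags in the Zac1 libraries together and 10 in the CAT libraries, and was not tested.

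The largest fold change of the set was that of Gpr4, a receptor that responds to extracellular acid through histidine residues. Gpr4, best known from endothelial cells, was nearly silent in control cells: its normalised tag count was 60.3 and 36.6 in the Zac1 libraries and 3.37 and 4.70 in the CAT libraries. Behind these lie 99 tags in the Zac1 libraries and 8 in the CAT libraries, so the size of the change is poorly fixed. With a mean of 4.04 in the CAT libraries, Gpr4 reached the minimum mean for testing only through the Zac1 libraries. The log2 fold change was 3.26 ± 0.60 (SE; limma adjusted p = 0.0106), with a 95% interval of 2.00 to 4.53. It passed in 11 of 13 alternatives, with a range of the adjusted p from 2.2e-05 to 0.766, and the 2 that failed were those with a Zac1 library left out, at log2 fold changes of 2.91 (replicate 9 out) and 3.62 (replicate 12 out). In Zac1-transfected cells Gpr4 remained a modest transcript, at rank 19 of the 39 genes.

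Because Gpr4 and Gpr124 are known from endothelium and the cells around vessels, markers of endothelium were read beside them. Of 7 such markers 4 were measured, and they summed to 57.3 and 50.4 in the Zac1 libraries and 37.0 and 74.4 in the CAT libraries. Those 4 were Pecam1, Cdh5, Tek and Vwf, of which Pecam1 and Vwf were tested and did not pass. Of the untested pair, Cdh5 was at 6.81 and 3.95 in the Zac1 libraries and 0.0366 and 2.85 in the CAT libraries, and Tek was at 0.975 and 0 in the Zac1 libraries and 7.68 and 3.70 in the CAT libraries. Macrophage markers, 2 of 8 measured, summed to 10.7 and 7.9 in the Zac1 libraries and 12.1 and 7.5 in the CAT libraries, and glial markers, 4 of 8 measured, to 416 and 387 in the Zac1 libraries and 333 and 243 in the CAT libraries. Of the fibroblast markers, 4 of 8 were measured, with a sum of 240 and 115 in the Zac1 libraries and 23.5 and 32.0 in the CAT libraries. The collagen gene Col1a1, the only one of them abundant enough to test, rose, at 223 and 79.0 in the Zac1 libraries and 6.84 and 17.0 in the CAT libraries (log2 fold change 3.49 ± 0.51 SE, limma adjusted p = 0.00215). Its partner Col1a2, not tested, was at 2.89 and 6.93 in the Zac1 libraries and 1.16 and 2.83 in the CAT libraries. The groups overlapped for the other measured fibroblast markers, Dcn and Pdgfra, which were not tested. Dcn was at 9.72 and 7.91 in the Zac1 libraries and 10.9 and 3.67 in the CAT libraries. Pdgfra was at 4.79 and 20.8 in the Zac1 libraries and 4.53 and 8.49 in the CAT libraries. Most of the fibroblast sum was thus Col1a1. The part of other cell types in the changes was not tested.

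Gpr153 and Gpr162 are orphan rhodopsin-like receptors that are related to each other. Gpr153 had a normalised tag count of 179 and 154 in the Zac1 libraries and 36.9 and 65.8 in the CAT libraries, and the groups lay well apart. Its means were 166 ± 17.3 and 51.4 ± 20.5 (SD, n = 2 each), with a log2 fold change of 1.73 ± 0.33 (SE; limma adjusted p = 0.0143). As for Gpr124, the call was lost without CAT replicate 9 (log2 fold change 1.32, adjusted p = 0.121), without the trend (0.0964) and after the GC correction (1.34, adjusted p = 0.11), within a range over alternatives of 2.69e-06 to 0.818. The GC content of its transcripts has a median of 60.1%. Among the 13 rhodopsin-like receptor genes outside the smaller families, 8 were tested. Gpr153 was the 1 that rose, where 0.962% of all genes tested did, and Gpr4 was counted apart with the proton-sensing receptors.

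Gpr162 was at 179 and 211 in the Zac1 libraries and 102 and 112 in the CAT libraries. The replicates were close and the groups did not overlap. The log2 fold change was 0.85 ± 0.26 (SE), with a 95% interval of 0.29 to 1.42, and the unadjusted p was 0.00517, but it did not pass over all genes (limma adjusted p = 0.228) or in any of the 14 alternatives (0.0674 to 1.0). It had the smallest p of the 27 Gpr genes that did not pass. Its transcripts have a median GC content of 60.3%, and after the GC correction its log2 fold change was 0.455.

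**Figure D2:**
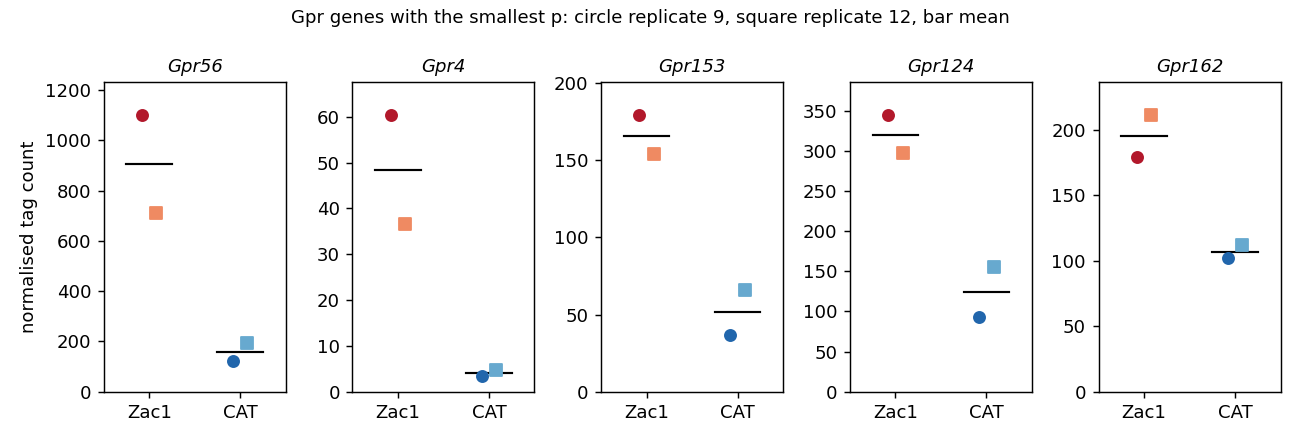
Normalised tag count per library of the 4 Gpr genes that rose and of Gpr162, which did not pass, in the Zac1 libraries (left) and the CAT libraries (right), with a bar at the mean of each group. In each panel both Zac1 points lie above both CAT points, from 60.3 and 36.6 against 3.37 and 4.70 for Gpr4 to 179 and 211 against 102 and 112 for Gpr162.

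Promoter sequence was examined because the supplied protein binds DNA. The windows of 250 bases before to 50 after each start are from RefSeq GRCm38.p6 and covered 29 of the 39 genes in 41 windows. They were searched on both strands for GGGGCCCC, a palindrome of the G-rich and C-rich kind reported for Zac1 binding. It was found in 1 window, the first of Gpr153, and in 1.08% of all 32851 promoter windows. The first window of each gene that rose is shown with that match in capitals, all on the plus strand (Gpr124 is not among the 29). Gpr153 and Gpr56 each have a second window, not shown, without the match:
Gpr153, chr4:152273862-152274161: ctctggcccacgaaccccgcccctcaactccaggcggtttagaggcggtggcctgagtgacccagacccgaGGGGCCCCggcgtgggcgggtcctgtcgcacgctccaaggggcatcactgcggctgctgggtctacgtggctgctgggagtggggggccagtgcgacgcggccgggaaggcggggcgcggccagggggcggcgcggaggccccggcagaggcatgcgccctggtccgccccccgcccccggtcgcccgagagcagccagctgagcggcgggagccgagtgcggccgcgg
Gpr4, chr7:19212288-19212587: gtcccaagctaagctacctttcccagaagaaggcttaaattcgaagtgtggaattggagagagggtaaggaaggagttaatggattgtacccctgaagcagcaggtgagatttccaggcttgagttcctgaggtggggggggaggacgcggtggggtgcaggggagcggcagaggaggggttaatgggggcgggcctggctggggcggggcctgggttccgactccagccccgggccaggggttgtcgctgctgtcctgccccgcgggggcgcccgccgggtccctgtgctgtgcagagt
Gpr56, chr8:94976859-94977158: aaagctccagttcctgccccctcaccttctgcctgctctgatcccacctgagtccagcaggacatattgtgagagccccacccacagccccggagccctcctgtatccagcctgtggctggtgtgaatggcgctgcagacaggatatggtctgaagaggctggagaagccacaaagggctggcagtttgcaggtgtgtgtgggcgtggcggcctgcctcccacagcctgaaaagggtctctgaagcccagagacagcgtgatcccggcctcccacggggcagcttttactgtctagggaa
The first window of Gpr153 is 77.3% G and C with 35 CpG pairs, that of Gpr4 is 64.0% with 14, and that of Gpr56 is 60.7% with 7, where the median over all promoter windows is 52.7% G and C. A match is a description of the letters, and no binding was measured here.

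None of the remaining rhodopsin-like receptor genes passed. Gpr19, an orphan receptor gene of the nervous system, was the most abundant of them, at 302 and 219 in the Zac1 libraries and 292 and 235 in the CAT libraries (log2 fold change -0.03 ± 0.26 SE). Its spread went with the replicate number more than with the plasmid. The same was seen for Gpr22, at 74.7 and 112 in the Zac1 libraries and 65.7 and 104 in the CAT libraries, and for Gpr146, at 67.9 and 95.9 in the Zac1 libraries and 46.9 and 88.4 in the CAT libraries. Gpr176, a receptor of the circadian pacemaker, was at 62.2 and 46.5 in the Zac1 libraries and 58.8 and 55.3 in the CAT libraries. Gpr75 differed most between the Zac1 libraries, at 4.77 in replicate 9 and 26.7 in replicate 12, against 16.7 and 17.8 in the CAT libraries. Gpr1, a receptor for the chemokine-like protein chemerin, was at 11.6 and 24.7 in the Zac1 libraries and 13.2 and 8.39 in the CAT libraries, and did not pass (log2 fold change 0.64 ± 0.64 SE).

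Gpr3 and Gpr12 raise cyclic AMP without an added ligand and are expressed in neurons. Gpr3 was at 82.5 and 113 in the Zac1 libraries and 106 and 83.4 in the CAT libraries, a log2 fold change of 0.03 ± 0.30 (SE). Gpr12 was lower, at 21.4 and 21.8 in the Zac1 libraries and 17.7 and 14 in the CAT libraries, and did not pass (0.43 ± 0.53 SE). The groups overlapped for Gpr3 and narrowly separated for Gpr12.

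Gpr85 and Gpr173 belong to a receptor group that is highly conserved and expressed in brain. Gpr85 was at 29.2 and 17.8 in the Zac1 libraries and 34.4 and 30 in the CAT libraries, a log2 fold change of -0.48 ± 0.46 (SE). Gpr173 was at 23.4 and 8.88 in the Zac1 libraries and 12.1 and 7.45 in the CAT libraries (0.56 ± 0.69 SE). Both were read from few tags and did not pass. Gpr84, a receptor for medium-chain fatty acids known from immune cells, was at 26.3 and 15.8 in the Zac1 libraries and 24.4 and 25.3 in the CAT libraries. Gpr179, a class C receptor gene of the retina, was too low to test.

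**Figure D3:**
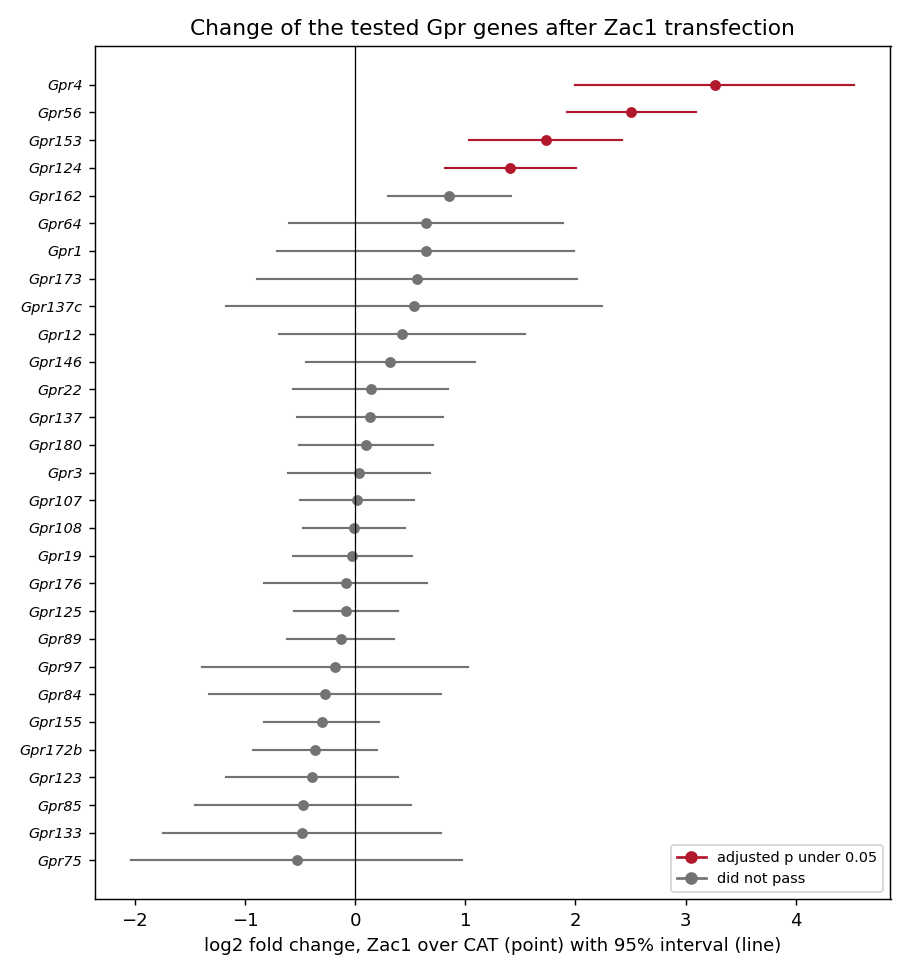
Log2 fold change, Zac1 over CAT, of 29 tested Gpr genes with 95% intervals, in order of size, red where the adjusted p was under 0.05. The intervals of Gpr4, Gpr56, Gpr153 and Gpr124 lie above 0, as does that of Gpr162, which did not pass, and the other 24 cross 0.

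Of the 8 Gpr genes that encode proteins not regarded as classical receptors, all were tested and none passed, with log2 fold changes between -0.36 and 0.53. They include the most abundant member, Gpr108, a Golgi protein, at 682 and 609 in the Zac1 libraries and 613 and 690 in the CAT libraries. Its log2 fold change was -0.01 ± 0.22 (SE), with a 95% interval of -0.48 to 0.45. Its relative Gpr107, at 281 and 347 in the Zac1 libraries and 275 and 345 in the CAT libraries, was as close to 0 (0.02 ± 0.24 SE). Gpr89, a Golgi pH regulator, was at 445 and 360 in the Zac1 libraries and 446 and 430 in the CAT libraries. Among the abundant genes of the whole set, the 7 with a mean of at least 200 that did not pass had log2 fold changes between -0.36 and 0.02, with standard errors of 0.22 to 0.27.

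The riboflavin transporter gene Gpr172b set the lower end of that range, and 1 library decided it. Its normalised tag count was 360 and 659 in the Zac1 libraries and 627 in either CAT library. The log2 fold change was -0.36 ± 0.27 (SE), and 0.07 without Zac1 replicate 9. Gpr155, a lysosomal cholesterol sensor, was lower in both Zac1 libraries, at 178 and 190, against 221 and 234 in the CAT libraries. With a log2 fold change of -0.31 ± 0.24 (SE) it did not pass (limma adjusted p = 0.982).

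Gpr137, whose product lies in the lysosomal membrane, was at 117 and 76.1 in the Zac1 libraries and 81.1 and 90.1 in the CAT libraries. Its relative Gpr137c was high in 1 library alone, at 22.4 and 4.92 in the Zac1 libraries and 7.75 and 6.55 in the CAT libraries. Gpr180 was at 151 and 130 in the Zac1 libraries and 161 and 106 in the CAT libraries. None of these differed between the groups by more than the spread of the replicates.

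The 8 genes below the minimum mean included Gpr20, Gpr21, Gpr30, Gpr115, Gpr152 and Gpr179. Their totals over the 4 libraries were at most 40 tags, and no value exceeded 16.5. Gpr152 had 5 and 6 tags in the Zac1 libraries and 5 and 0 in the CAT libraries. At this depth a difference between the groups was not detectable for them, and none passed when all listed genes were tested without the minimum.

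The genes through which receptors signal were set beside them, from lists of G protein subunits, regulators and second messenger enzymes. Of 12 G protein alpha subunit genes tested 2 rose, Gna15 and Gnat1, against the 0.962% of all genes tested, and the list median was 0.08. Gna15, an alpha subunit of the Gq class known from blood cells, had a normalised tag count of 144 and 64.2 in the Zac1 libraries and 21.1 and 21.6 in the CAT libraries. Its log2 fold change was 2.12 ± 0.42 (SE; limma adjusted p = 0.0185), and it did not pass after the GC correction (0.0795, range over alternatives 4.6e-06 to 0.818), without the trend (0.0926), without Zac1 replicate 9 or 12, or in limma voom on the recovered counts (0.0607). Gnat1, the transducin of rod photoreceptors, was at 26.2 and 24.7 in the Zac1 libraries, with 52 tags there and 0 tags in the CAT libraries. That is at least 8.35-fold higher, against a floor of 3 tags per CAT library (limma adjusted p = 0.0288; 0.0592 after the GC correction, range over alternatives 0.00117 to 0.766). Gnat1 reached the minimum mean for testing only through the Zac1 libraries, so its rise let it into the count. Gna12 was at 22.4 and 12.8 in the Zac1 libraries and 31.0 and 24.3 in the CAT libraries and did not pass (-0.66 ± 0.51 SE). The alpha subunit with the highest level, Gnas, was at 71628 and 70917 in the Zac1 libraries and 61630 and 64032 in the CAT libraries and did not pass.

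No gene passed among 13 tested beta and gamma subunits, 10 RGS proteins, which shorten G protein signals, 7 receptor kinases and arrestins, which switch receptors off, or 17 second messenger enzymes. Their median log2 fold changes were -0.08, 0.15, 0.12 and 0.29. Of the second messenger enzymes 14 of 17 lay above 0, where 5529 of 11433 genes tested did. The smallest p in these lists was that of Pde4a, a cyclic AMP phosphodiesterase gene, at 217 and 156 in the Zac1 libraries and 107 and 105 in the CAT libraries (log2 fold change 0.79 ± 0.27 SE, limma adjusted p = 0.359). Pde4b lay on the other side, at 96.1 and 141 in the Zac1 libraries and 174 and 181 in the CAT libraries (-0.60 ± 0.28 SE, limma adjusted p = 0.769). Pde4d was at 482 and 587 in the Zac1 libraries and 328 and 427 in the CAT libraries (0.51 ± 0.24 SE). Each of these 3 phosphodiesterase genes had groups that did not overlap, and none passed. Of all genes tested, 17.2% had both Zac1 libraries above both CAT libraries and 16.7% had both below. The 3 were named for their small p, which favours groups that do not overlap.

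Rgs9, known from striatum and retina, was at 104 and 147 in the Zac1 libraries and 50.2 and 89.3 in the CAT libraries (0.87 ± 0.34 SE, limma adjusted p = 0.50). Rgs17 was at 138 and 126 in the Zac1 libraries and 85.5 and 92.9 in the CAT libraries (0.56 ± 0.28 SE). Rgs11 was lower, at 32.0 and 42.5 in the Zac1 libraries and 7.02 and 35.0 in the CAT libraries, where CAT replicate 9 alone stood low (1.16 ± 0.61 SE). Of the beta and gamma subunits the smallest p belonged to Gngt2, Gng7 and Gng10, with log2 fold changes of 0.55 ± 0.35, 0.57 ± 0.38 and -0.28 ± 0.24 (SE). Of the kinases and arrestins it belonged to Adrbk1, Grk5 and Arrb2, with 0.23 ± 0.22, 0.28 ± 0.33 and -0.16 ± 0.21 (SE). The subunits, kinases and arrestins thus lay within 2 standard errors of 0.

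Among receptors with other, mostly ligand-based names 1 of 42 tested rose, where 0.962% of all genes tested did. The gene was S1pr4, a receptor for sphingosine-1-phosphate, with 132 tags in the Zac1 libraries and 2 in the CAT libraries. Its normalised tag count was 98.3 and 30.6 in the Zac1 libraries and 1.11 and 0.931 in the CAT libraries (limma adjusted p = 0.00345, range over alternatives 5.35e-08 to 0.766), a ratio of 63.6 with a 95% counting interval of 17.3 to 531. Leaving out Zac1 replicate 9 gave a ratio of 30.1, and leaving out Zac1 replicate 12 gave 96.5. S1pr4 too reached the minimum mean for testing only through the Zac1 libraries. The list median was 0.09. Pth1r, the parathyroid hormone receptor gene, at 83.6 and 66.2 in the Zac1 libraries and 22.3 and 26.3 in the CAT libraries, did not pass (log2 fold change 1.58 ± 0.38 SE, limma adjusted p = 0.0675). Nor did the adhesion receptor gene Bai2, at 139 and 59.3 in the Zac1 libraries and 23.5 and 35.7 in the CAT libraries (1.62 ± 0.42 SE, limma adjusted p = 0.0951).

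Of 5 tested Gprc, Lgr and related genes outside the symbol rule none passed. Gpr37l1, a glial receptor gene whose symbol ends in a digit and so falls outside it, had 12 and 42 tags in the Zac1 libraries and 0 in both CAT libraries. It was at least 8.67-fold higher against the same floor, at least 3.82-fold without Zac1 replicate 12 and at least 13.6-fold without Zac1 replicate 9. It reached the minimum mean for testing only through the Zac1 libraries. It did not pass (limma adjusted p = 0.0628), but did in 7 of 13 alternatives, over which the adjusted p ranged from 0.0056 to 0.691. Gprc5a and Lgr4 had log2 fold changes of 0.46 ± 0.41 and 0.29 ± 0.38 (SE). The astrocyte and Schwann cell gene S100b was likewise at 26.3 and 9.86 in the Zac1 libraries and 0 and 0 in the CAT libraries, while Gfap was at 0.941 and 6.94 in the Zac1 libraries and 0.0366 and 2.85 in the CAT libraries.

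**Figure D4:**
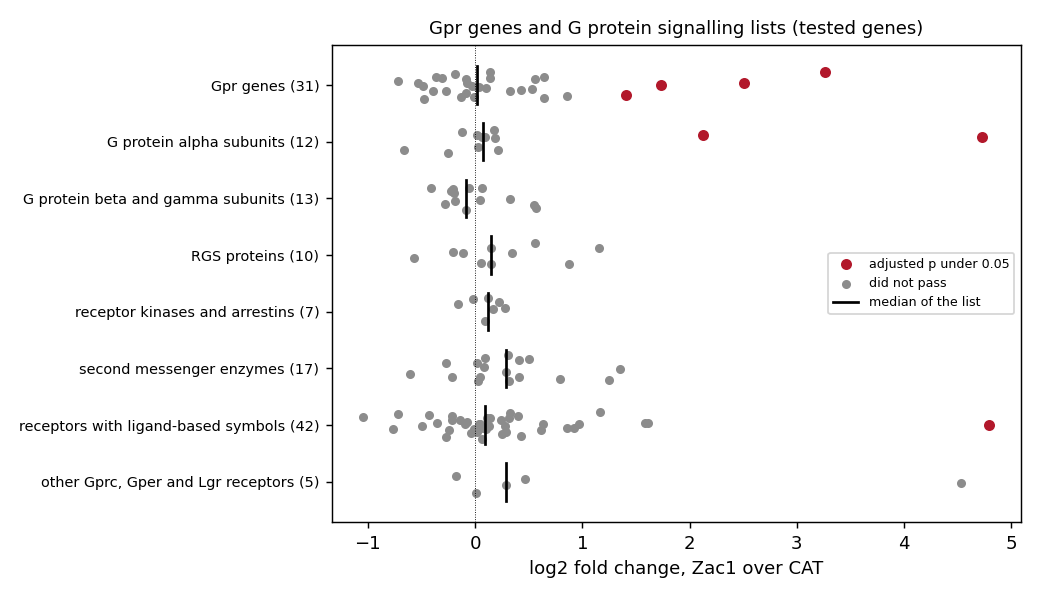
Log2 fold change, Zac1 over CAT, of each tested gene among the Gpr genes and 7 lists of G protein signalling genes (number tested in brackets), with a bar at the median of each list and red points where the adjusted p was under 0.05. All list medians lie between -0.08 and 0.29, and the red points are 4 Gpr genes, 2 alpha subunit genes and S1pr4.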

How the data were processed

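The authors deposited 1 table for the 4 libraries, whose lines carry a symbol and a gene ID. Per its name the deposited values are a normalised signal, pseudocounts after TMM normalization; edgeR and build mm9 are named in the submitters' processing notes. How tags were mapped and assigned to genes is not given here, so overlapping or near-identical genes are uncertain. Libraries used 2 µg of RNA and 15 PCR cycles, per the labels' protocols. Inverting the quantile adjustment (common dispersion 0.0364) recovered whole tag counts that return 100% of the values within 1e-06; they served for depth and low genes. Of 12866 lines, 5 without a gene ID (at most 0.00897% of a library's tags) were left out.

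Genes with a mean of at least 10 (11433) were tested two-sided with limma 3.58.1 in R 4.3.3 on log2(value + 1), which understates changes of low genes, with a variance trend, no replicate term and Benjamini-Hochberg adjustment over all of them. The scripts were tested on simulated data. Floors and the interval of a ratio of counts cover counting error only, while limma's p-values and 95% intervals of log2 fold changes measure the spread between 2 transfections per group, much of it borrowed from genes of similar level (14.1 prior degrees of freedom). Named genes were those that passed, the 12 most abundant members, the 10 higher and 10 lower with the smallest p, and of each signalling list those that passed and the 3 with the smallest p; most other members were named to account for the set, and Ccdc102a, Brf2 and Gnas for their position or level. A few genes that enter the counts are not reported here by name. Members and lists were chosen with earlier results of these data known. Alternatives changed the pseudocount, filter, trend, scaling, GC content, replicate block and libraries, with limma voom added after seeing the data. Coordinates are those of RefSeq GRCm38.p6 promoters and not of mm9.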

Additional observations from a re-analysis of the deposited data

How the results depend on the processing

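Of the 11433 genes tested 110 rose and 0 fell; the number that rose was 67 with a mean of at least 50, 53 after the GC correction, 279 with the replicate block and 168 with the replicate block and GC correction together, which also gave 33 that fell. Leaving out 1 library gave 1 to 154 that rose and 0 to 5 that fell. Of the Gpr genes 4 rose; 2 did (Gpr4 and Gpr56) without the trend and after the GC correction, and 0 to 4 with 1 library left out (0 without either Zac1 library, 2 without CAT replicate 9). With the replicate block, alone or with the GC correction, 4 Gpr genes rose. Genes lost after the GC correction alone passed when it was fitted with the replicate block. The limma adjusted p was then 0.00468 for Gpr124, 0.00126 for Gpr153, 0.000321 for Gna15 and 0.00289 for Gnat1. The GC-corrected log2 fold changes were the same with and without the block, 1.045 for Gpr124 and 1.342 for Gpr153. With the block few degrees of freedom remain, and its p-values are those of a spread taken almost wholly from other genes. The same holds for the limma adjusted p of 7.58e-21 for Gpr56. The labels do not say that a number marks a shared day or batch, and the deviations of same-numbered libraries from their group means correlated at 0.2. The median of the Gpr genes, 0.017, was 0.079 with equal library totals, -0.081 after the GC correction with or without the replicate block, and -0.041 to 0.075 with 1 library left out. In the signalling lists 3 genes rose, against 1 with a mean of at least 50, 1 after the GC correction, 6 with the replicate block, and 0 to 5 that rose and 0 to 1 that fell with 1 library left out. Genes that did not pass and lay near 0 changed sign: with equal library totals Gpr108 was at 0.05 and Gpr19 at 0.036. With 1 library left out the log2 fold change ranged from -0.098 to 0.073 for Gpr108, -0.22 to 0.05 for Gpr125, -0.798 to 0.071 for Gpr172b, -0.282 to 0.023 for Gpr89, -0.146 to 0.18 for Gpr107, -0.258 to 0.207 for Gpr19, -0.201 to 0.396 for Gpr180, -0.129 to 0.771 for Gpr146, -0.623 to 0.075 for Gpr84, -1.66 to 0.604 for Gpr75, -0.996 to 0.035 for Gpr133 and -0.093 to 1.211 for Gpr173.
The 2 count tests planned, with edgeR and DESeq2, were not run, since the deposited values were treated as a signal. The cause of these shifts was not tested, except that a minimum mean of 50 leaves out Gpr4, Gnat1 and S1pr4. With that minimum 3 Gpr genes rose. Fits without 1 library leave a lone library in its group, which is assumed to vary like the others.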
